A study of Homo sapiens with 12 samples.

Results

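Of 8683 human genes with a mean of at least 1 unique molecular identifier (UMI) per cell in both LAST-seq libraries of single HEK293T cells, 82 had a mean more than 10 times that in CEL-seq2, and these 82 genes are described here. A UMI is a random tag that marks a molecule before amplification, so that a count of UMIs counts molecules and is not scaled by gene length. The members were chosen on the means over the 2 LAST-seq libraries and the 2 CEL-seq2 libraries, with genes at 0 in CEL-seq2 allowed and ERCC spike-in RNAs left out. The difference between the 2 assays in single cells is therefore the choice itself (0.944% of the 8683 genes) and is given as a description without a test. The median gene was close to equal in the 2 assays, at a LAST-seq level 0.904 times that of CEL-seq2 (8678 genes with a CEL-seq2 UMI), and the members are the upper edge of that distribution.

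The study compared LAST-seq, which transcribes single-stranded RNA directly from an attached T7 promoter, with CEL-seq2 and SMART-seq. HEK293T is a human embryonic kidney line that carries the SV40 large T antigen. LAST-seq was run on 2 libraries of single HEK293T cells (1 with the A60 spike-in, 1 with ERCC), on wells of 15 pg total RNA and on wells of cell lysate with the A60 spike-in. CEL-seq2 was run on 2 libraries of single cells (1 with ERCC and A60, 1 with ERCC) and on lysate, SMART-seq on 6 single cells and on lysate (2 tables), and LAST-seq also on eHAP1 cells, a haploid human line, either wild type (148 wells) or with SCC4, a subunit of the cohesin loader, knocked out (153 wells). Each HEK293T library of LAST-seq or CEL-seq2 held 10 wells that were indexed, pooled and amplified together, so wells of 1 library share its chemistry and are not replicates of an assay. The 2 LAST-seq single-cell libraries held 1424870 and 1509801 UMIs on genes, and the 2 CEL-seq2 libraries held 1554129 and 1455889. Every LAST-seq HEK293T library used the same 10 barcodes, and the CEL-seq2 libraries likewise shared 10. Wells with the same barcode in different LAST-seq libraries were no more alike (median r = 0.768 over 60 pairs) than wells with different barcodes (0.767 over 540 pairs), on log10(UMI + 1). The 6 SMART-seq single-cell wells matched 6 wells of the second SMART-seq lysate table within sampling noise, so single cells and lysate cannot be told apart for these 6 wells. The 6 matching wells were left out of the means of the second lysate table, which kept 10 wells. The first lysate table held 3 near-identical pairs of wells, which stayed in its means. Of the HEK293T markers, VIM, LIN28B and IGF2BP1 had UMIs in every single-cell library (VIM 38.3 to 85.1 per cell), as did the neurofilament gene NEFL (1.5 to 11.8). NEFM had at most 1.6, while PAX2 had at most 0.2 and INA at most 0.5. Among genes of other cell types ALB was at 0, PTPRC reached 0.1 and COL1A1 lay at 1.5 to 2 UMIs per cell.

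Both UMI assays capture RNA through a poly-A tail or an A-rich stretch. Messenger RNAs and most long noncoding RNAs (lncRNAs) carry such a tail, whereas spliceosomal small nuclear RNAs, small nucleolar RNAs and mature transfer RNAs usually end without one. A processed pseudogene is a genomic copy of a spliced messenger RNA, often of a ribosomal protein, inserted with the remains of its poly-A tail, and short reads are placed on it or on the source gene by the few bases in which the copies differ.

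By annotated type the 82 members were 47 processed pseudogenes (1 of them annotated as transcribed), 18 protein-coding genes, 11 lncRNAs, 2 mitochondrial transfer RNAs and 1 each of snRNA, snoRNA, miRNA precursor and a gene of type TEC, a transcript still to be experimentally verified. Processed pseudogenes made up 57.3% of the members but 7.03% of the 8683 genes, and protein-coding genes 22% of the members against 89.1%. Read the other way, 7.70% of the expressed processed pseudogenes, 5.45% of the 202 lncRNAs and 0.233% of the 7738 protein-coding genes were members. The types overlapped in level, at 1.3 to 43.45 UMIs per LAST-seq cell for the pseudogenes and 1.05 to 324 for the protein-coding genes. The pseudogenes held 267 of the 1412 member UMIs per LAST-seq cell and the 18 protein-coding genes held 1008 (sums of library means). The 82 genes together took 0.962% of LAST-seq UMIs and 0.0357% of CEL-seq2 UMIs, and the 3 highest, SSBP2, SRSF6 and CCDC136, held 55.3% of the members' LAST-seq UMIs. Most members were modest in level, with a median over all 82 of 3.80 UMIs per cell against 4.85 for all 8683 genes, and 48 of the 82 had under 5.

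**Figure D1:**
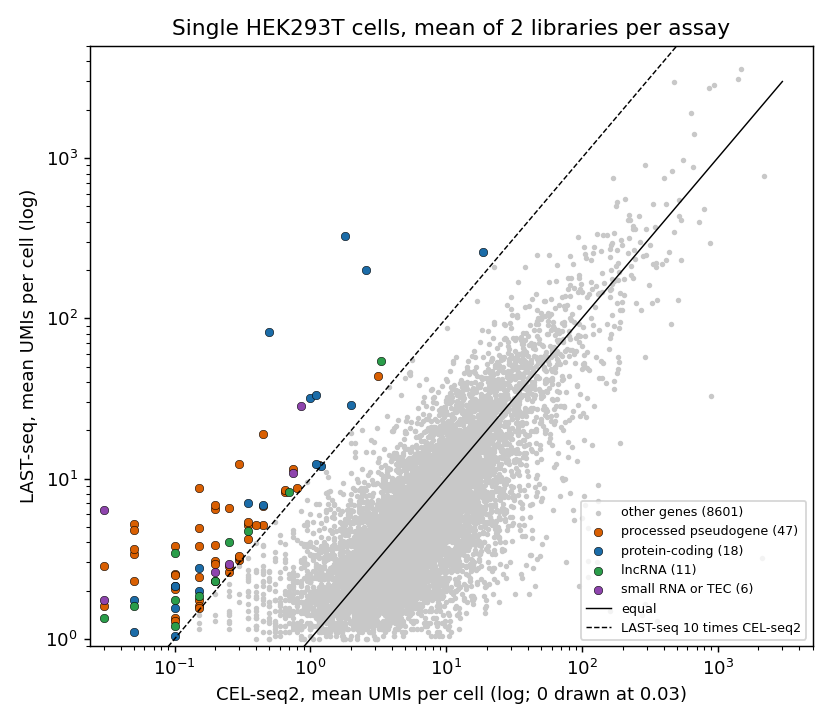
Mean UMIs per cell in LAST-seq (vertical, log) against CEL-seq2 (horizontal, log, with 0 drawn at 0.03), each the mean of 2 libraries of single HEK293T cells; grey points are the other 8601 genes and coloured points the 82 members by type. Most members sit at the lower left, under 5 LAST-seq UMIs per cell, and a few protein-coding genes stand far above them.

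The members nearest the threshold were MOSPD3 at a ratio of 10.04 (12.1 UMIs per LAST-seq cell against 1.2), RPS23P1 at 10.3 and RPS4XP2 at 10.3. Just outside it lay the pseudogene ENSG00000215450 at 10.0, RPL17P26 at 9.88 and SH2D2A at 9.82. CEL-seq2 counts were small throughout: 26 members had fewer than 3 CEL-seq2 UMIs over all 20 cells, and 5 had none. Taking CEL-seq2 at no less than 3 UMIs over its 20 cells, 6 members had a ratio under 10. By that measure the 10 highest ratios belonged to SSBP2 (180), CARF (165), CCDC136 (78.0), NPM1P48 (58.3), ENSG00000279366 (at least 42.7, with no CEL-seq2 UMI), RPS3AP25 (42.0), ENSG00000239344 (41.2), RPS29P3 (34.7), RPL36AP1 (34.3) and MT-TF (33.4).

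The following sequences show the kinds of RNA among the members (GRCh38, from the annotated gene, with the strand of the gene). The first is the TEC gene ENSG00000279366 at chr18:47912207-47912504, minus strand, which had no CEL-seq2 UMI and whose longest run of A was 4:
ENSG00000279366: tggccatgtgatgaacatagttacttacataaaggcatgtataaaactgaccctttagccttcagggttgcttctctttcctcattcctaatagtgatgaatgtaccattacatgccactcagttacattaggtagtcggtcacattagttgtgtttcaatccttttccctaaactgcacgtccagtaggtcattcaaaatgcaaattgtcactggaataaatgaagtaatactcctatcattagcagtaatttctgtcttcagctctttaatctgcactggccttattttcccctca
The second is the mitochondrial phenylalanine transfer RNA gene MT-TF at chrM:577-647, plus strand, 71 bases with no A run over 4:
MT-TF: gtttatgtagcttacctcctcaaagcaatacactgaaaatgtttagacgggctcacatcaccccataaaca
The last set puts the coding sequence of RPS29, a protein of the small ribosomal subunit, beside its copies RPS29P3 at chr3:196536532-196536702 and RPS29P11 at chr4:25678850-25679020, both on the plus strand, with the bases that differ from RPS29 in capitals:
RPS29: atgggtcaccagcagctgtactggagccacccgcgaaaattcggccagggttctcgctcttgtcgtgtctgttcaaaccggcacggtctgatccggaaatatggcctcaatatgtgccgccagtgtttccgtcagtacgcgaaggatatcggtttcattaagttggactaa
RPS29P3: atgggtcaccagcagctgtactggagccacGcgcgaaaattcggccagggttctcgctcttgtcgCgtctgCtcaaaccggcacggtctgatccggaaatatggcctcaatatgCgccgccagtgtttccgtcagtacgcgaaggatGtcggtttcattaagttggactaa
RPS29P11: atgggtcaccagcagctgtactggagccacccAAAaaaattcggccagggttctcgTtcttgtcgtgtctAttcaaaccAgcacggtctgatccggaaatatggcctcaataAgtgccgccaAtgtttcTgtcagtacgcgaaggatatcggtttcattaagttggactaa
RPS29P3 differed from RPS29 at 5 of 171 positions and RPS29P11 at 9 over the stretch shown, and within it reads can be placed on a copy only by those bases.

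The highest members differed from most genes in how many reads stood behind each UMI. Reads per UMI, the number of sequenced reads behind each counted molecule, had a median of 4.24 over the 8683 genes in LAST-seq. It was under 1.4 for 11 members (13.4%) against 0.852% of all 8683 genes, a limit chosen after the values were seen. The UMI count is part of both the rule and this quantity, so the 2 are not independent. These 11 were SSBP2, CCDC136, CARF, EHBP1-AS1, GREM1, ABCG1, EOGT, ENSG00000279366, RPS29P11, ENSG00000268967 and ENSG00000256399, with 1.09 to 1.35 reads per UMI. They held 54.4% of the members' LAST-seq UMIs, while the other 71 members had a median of 3.05. In the plot of reads per UMI against level, these genes form a strip along the lower edge that runs out to the highest members.

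**Figure D2:**
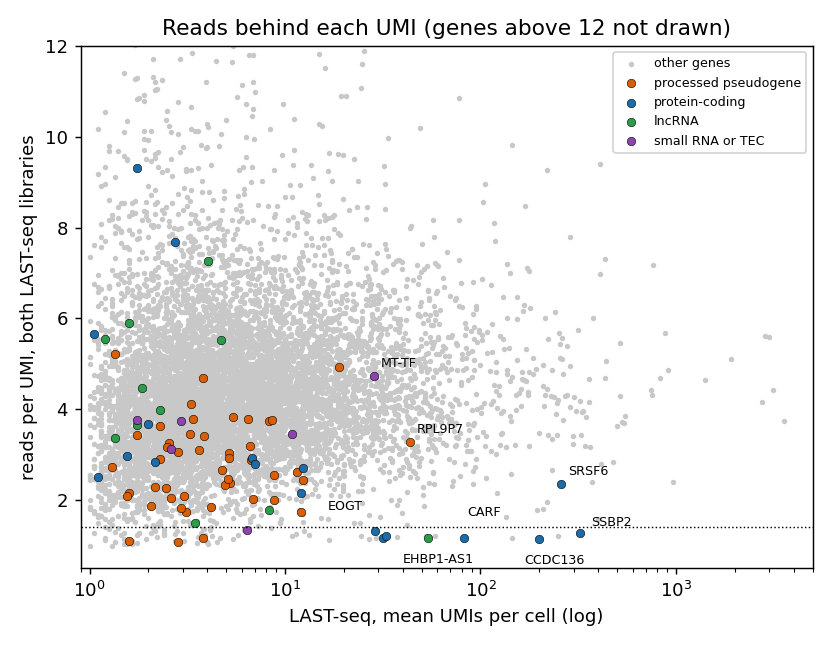
Reads per UMI over both LAST-seq single-cell libraries (vertical) against mean UMIs per cell (horizontal, log) for members by type and for other genes in grey; the dotted line is at 1.4. SSBP2, CCDC136, CARF, EHBP1-AS1 and EOGT lie under the line at 28.9 UMIs per cell or more, while SRSF6, RPL9P7 and MT-TF lie above it.

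Of these 11 members 3 were high in 1 LAST-seq library only. SSBP2, a single-stranded DNA binding protein gene at chr5:81412804-81751797, had 491 to 859 UMIs per well (median 617) in the first library and 0 to 6 (median 1.5) in the second. Its wells held at most 5 UMIs in CEL-seq2 cells, 0 or 1 in 15-pg RNA and 0 to 5 in LAST-seq lysate, so every well of the first library lay above every other well. CCDC136, a coiled-coil protein gene at chr7:128790757-128822132, showed the mirror image. It had 307 to 526 UMIs per well (median 384) in the second library, 0 to 4 in the first, 0 to 2 in 15-pg RNA, 2 to 7 in LAST-seq lysate and at most 13 in any CEL-seq2 cell. EOGT, which encodes an O-GlcNAc transferase of the endoplasmic reticulum, had 45 to 65 UMIs per well (median 56) in the first library and 0 to 5 in the second. Within each of these genes reads per UMI were fewer in the library where the level was high. SSBP2 had 1.27 in the library where it was high and 4.29 in the other, CCDC136 had 1.14 and 2.85, and EOGT had 1.26 and 2.57. Of the 8683 genes, 7 differed more than 10-fold between the 2 LAST-seq libraries, and 3 of them were these members. In the other 79 members the ratio of the first library to the second ran from 0.352 to 4.36. SSBP2 and EOGT, at mean LAST-seq levels of 324 and 28.9 UMIs per cell, passed the ratio of 10 through 1 library each, as did CCDC136 at 199.

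CARF, a calcium-responsive transcription factor gene at chr2:202912214-202988263, was high in both LAST-seq single-cell libraries and in 15-pg RNA. Its wells held 58 to 135 UMIs (median 76) in the first library, 60 to 131 (median 80.5) in the second and 61 to 100 (median 73) in RNA. In LAST-seq lysate the wells held 0 to 2 UMIs, with a total of 6 over 10 wells, and CEL-seq2 gave 4 and 6 UMIs in its 2 single-cell libraries and none in lysate. The LAST-seq lysate wells thus overlapped the CEL-seq2 wells and did not overlap the LAST-seq wells of cells or RNA. SMART-seq gave no CARF read in the 6 single-cell wells and means of 2.0 and 2.7 reads per well in the 2 lysate tables. In eHAP1 cells CARF had a mean of 146 UMIs per well in wild type and 73.3 in the SCC4 knockout, with a UMI in all 148 and all 153 wells. By batch, as the column names give it, the means were 111 and 180 in the wild type and 55.2 and 91.6 in the knockout.

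EHBP1-AS1, GREM1 and ABCG1 were present in every well of all 4 LAST-seq inputs. EHBP1-AS1, an lncRNA antisense to EHBP1, had 47 to 72 UMIs per well (median 55) in the first library, 39 to 78 (median 47.5) in the second, 24 to 45 in RNA and 19 to 35 in lysate. In CEL-seq2 the wells held 0 to 6, 1 to 6 and 0 to 4 UMIs in the 2 single-cell libraries and lysate. GREM1, which encodes a secreted antagonist of bone morphogenetic proteins, had 28 to 46, 20 to 40, 13 to 28 and 12 to 20 UMIs per well in the same 4 LAST-seq libraries and at most 3 in any CEL-seq2 well. ABCG1, a cholesterol exporter gene, had 28 to 39, 20 to 45, 11 to 25 and 13 to 46, and at most 3 in any CEL-seq2 well. No LAST-seq well of these 3 genes overlapped a CEL-seq2 well of the same gene, which in single cells was favoured by the rule. The share of all genes without such overlap was not computed. The spread between wells was small in the first library, with a coefficient of variation (CV, SD over mean) of 0.105 for ABCG1 and 0.140 for EHBP1-AS1. The median over the 8601 other genes, most of which are lower in level, was 0.53. In the second library the spread was larger, at 0.238 for ABCG1 and 0.269 for EHBP1-AS1, against a median of 0.479. SMART-seq gave each of these 3 genes a read in 1 of 6 single-cell wells.

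**Figure D3:**
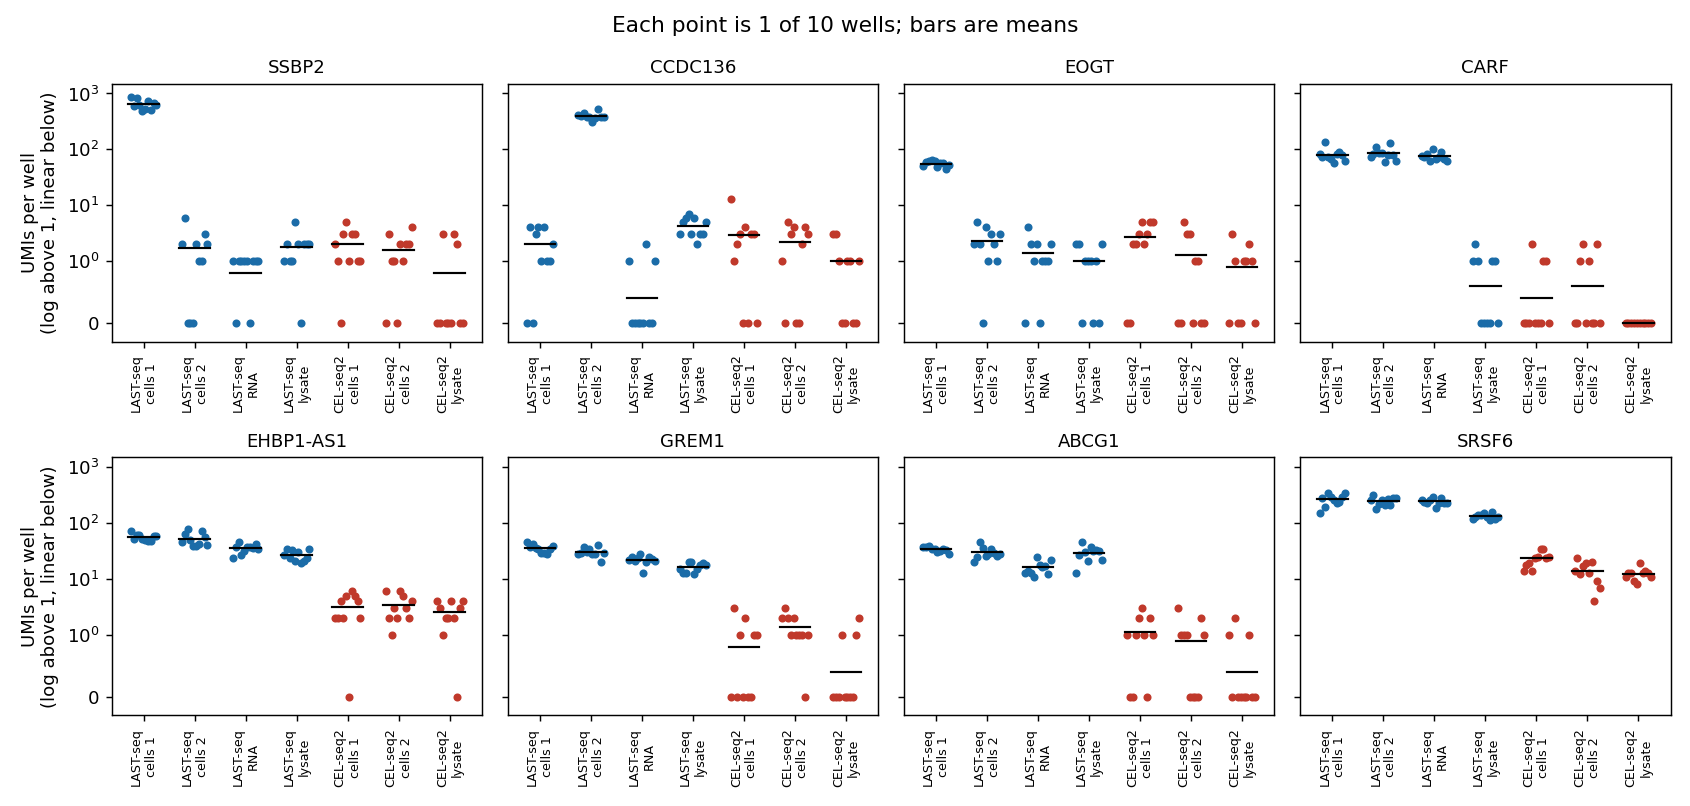
UMIs per well (vertical, log above 1 and linear below) for 8 members in 7 HEK293T libraries; each point is 1 of 10 wells, bars are means, blue is LAST-seq and red CEL-seq2. SSBP2 and EOGT are high in the first LAST-seq library only, CCDC136 in the second only, CARF in cells and RNA but not lysate, and EHBP1-AS1, GREM1, ABCG1 and SRSF6 in all 4 LAST-seq libraries.

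Levels of these genes did not follow the yield of a well. Across the 860 genes with at least 25 UMIs per cell in the first LAST-seq library, the median correlation with all other UMIs of the well was 0.883 over 10 wells, and it was negative for 10 genes. Of these 10, 5 were members (SSBP2, r = -0.69; CARF, -0.63; ABCG1, -0.48; GREM1, -0.28; EHBP1-AS1, -0.26). In the second library the median over 938 genes was 0.808, and 5 of the 15 negative genes were members (ABCG1, -0.54; EHBP1-AS1, -0.52; CARF, -0.49; GREM1, -0.36; CCDC136, -0.26). The negative genes had few reads per UMI, with 8 of 10 and 13 of 15 under 1.4, and included DNMT3A, LDB1, SH3KBP1 and SP100, which were not members and were negative in both libraries. EOGT was an exception among the low-read members at r = 0.27 in the first library. SRSF6, with 2.34 reads per UMI, had r = 0.97 and 0.87 in the 2 libraries, and RPL9P7 had 0.96 and 0.94. MT-TF, with 4.73 reads per UMI, was lower at 0.31 and 0.62, so a weak correlation was not confined to genes with few reads per UMI. The summed ERCC spike-ins of the second library, 3357 to 6453 UMIs per well, had r = 0.18 with gene UMIs and 6.83 reads per UMI. In RNA wells the correlation was 0.93 for GREM1, 0.57 for CARF, 0.15 for ABCG1 and -0.33 for EHBP1-AS1, and in lysate wells it was 0.34 for EHBP1-AS1, 0.22 for GREM1 and -0.33 for ABCG1. In eHAP1 wells it was positive for CARF, EHBP1-AS1, GREM1 and ABCG1 within each of the 4 batches, from 0.41 to 0.94. These correlations are descriptions over wells that share a library and its depth.

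SRSF6, a serine and arginine-rich splicing factor gene at chr20:43457893-43466046, was high in both LAST-seq libraries. It had 154 to 352 UMIs per well (median 272.5) in the first LAST-seq library and 181 to 321 (median 260) in the second, against 14 to 35 and 4 to 24 in the CEL-seq2 libraries. RNA wells held 183 to 292 and LAST-seq lysate wells 115 to 157, while CEL-seq2 lysate wells held 8 to 19. The lysate libraries, which the rule did not use, gave a ratio of 10.6 (95% counting interval 8.84 to 12.9). Groups did not overlap in lysate, or in cells, where the rule favoured such a gap. The share of all genes without such overlap was not computed, here or for the gaps of SSBP2 and CARF. All 6 SMART-seq single-cell wells had SRSF6 reads (mean 104). In eHAP1 the means were 291 and 260 UMIs per well in the wild type and the knockout. Its longest annotated transcript held a run of 37 T.

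Besides MOSPD3, the other 10 protein-coding members were lower, at 1.05 to 12.4 UMIs per LAST-seq cell. CSKMT, which encodes a citrate synthase lysine methyltransferase, had totals of 127 and 120 UMIs in the 2 LAST-seq libraries against 12 and 10 in CEL-seq2, and 71 against 8 in lysate. ELAVL3, which encodes a neuronal RNA-binding protein, had 62 and 78 against 1 and 6, and 76 against 3 in lysate. TSACC, a testis-expressed co-chaperone gene, had 53 and 83 against 6 and 3, but no UMI in LAST-seq lysate against 5 in CEL-seq2 lysate. Its 2 assays thus stood in opposite order in cells and lysate, on few UMIs. The transcription factor gene OLIG1 had 11 and 24 UMIs against 0 and 1, with none in either lysate library. The rest of the 10 included PRICKLE2, BCL2A1, CCDC71 and PRR5L, with 2 or 3 CEL-seq2 UMIs each, and a second identifier of a pseudoautosomal gene that carried no annotation of its own and so has no sequence features.

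Long homopolymer runs were found in a few members. EHBP1-AS1 and GREM1 each had a run of 50 A in their exons, ELAVL3 a run of 21, ABCG1 a run of 19 outside its longest transcript, and CSKMT a run of 16. That of EHBP1-AS1 is shown in capitals with the 40 bases before it (chr2:63043922-63044011, minus strand), and it closes the longest annotated transcript:
EHBP1-AS1: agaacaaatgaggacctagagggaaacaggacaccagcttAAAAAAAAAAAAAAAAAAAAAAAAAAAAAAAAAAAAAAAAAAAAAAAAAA
That of GREM1 lies 6973 bases before the 3′ end of its longest transcript, and that of ELAVL3 169 bases before. Of 13 genes among the 8683 with an exonic run of at least 45 A or T, 2 were members. Those 13 had a median of 1.69 reads per UMI, and 4 of them were under 1.4: EHBP1-AS1, GREM1, PRRG3 and DNMT3A. The other 11 went either way: LAST-seq gave ZNF302 12.4 UMIs per cell where CEL-seq2 gave 64.7, and SNX27 2.55 where CEL-seq2 gave 26.2. Of the 7467 genes whose longest run of A or T was under 20, 0.616% were under 1.4 reads per UMI, and 75 of the 81 members with a sequence were of this kind. CARF, SSBP2, EOGT, CCDC136 and ABCG1 had A runs of 14, 9, 6, 7 and 6 in the longest transcript.

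Over all members A-rich sequence was less common than in the expressed genes. An A-rich window, at least 12 A in 15 bases, was present in 21.0% of the 81 members with a sequence and in 52.3% of all genes. One at least 30 bases before the 3′ end was present in 19.8% against 49.8%. The members were short, with a median of 695 bases in the longest transcript against 3672, and 67.9% had a single exon against 9.51%. Median GC content was 45.6% against 46.2%. By type it was 45.4% in member pseudogenes against 46.5% in the others. In protein-coding genes it was 49.1% against 46.3%, and in lncRNAs 50.5% against 44.1%. Within a type the picture differed. Among processed pseudogenes, members had a median of 488 bases and 10.6% held an A-rich window, while the others had 498 bases and 15.8%. Among protein-coding genes, the medians were 4246 and 3959 bases and the shares with an A-rich window 52.9% and 55.7%. The lncRNA members were shorter than the other lncRNAs, at a median of 777 against 3068 bases, and 27.3% of them held an A-rich window against 55.5%. Exons overlapped a gene on the opposite strand in 17.3% of members against 39.0% of all genes. Within types the gap was smaller, at 4.26% of member pseudogenes against 5.51% of the others. For protein-coding genes it was 35.3% against 41.6%, and for lncRNAs 45.5% against 57.6%. The minimum free energy of the last 200 bases, a predicted measure of folding, was -23.9 kcal/mol per 100 bases in members and -20.1 in all genes, and among pseudogenes -25.5 in members and -24.4 in the others.

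The 47 processed pseudogenes were mostly copies of ribosomal protein genes. A source gene was assigned to 46 by symbol or by best sequence match, and 34 of the 47 resembled a ribosomal protein gene (72.3%), close to the 68.4% among the other 563 expressed processed pseudogenes. Most often represented were RPS4X with 4 members of 10 expressed copies, RPS3A with 3 of 17, and RPL35A, RPL36A, RPL7A and RPS29 with 2 each. The copies were chosen for their ratio and the source genes were not, so a comparison of the 2 is a description. The ratios of the source genes ran from 0.451 to 6.27 with a median of 1.5, and none passed 10, while the median over the sources of the other pseudogenes was 0.948. The same choice bears on the share of the source gene's UMIs. Member copies had a median of 2.53% of the source gene's UMIs in LAST-seq and 0.126% in CEL-seq2, while the other copies had 6.30% and 6.07%.

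**Figure D4:**
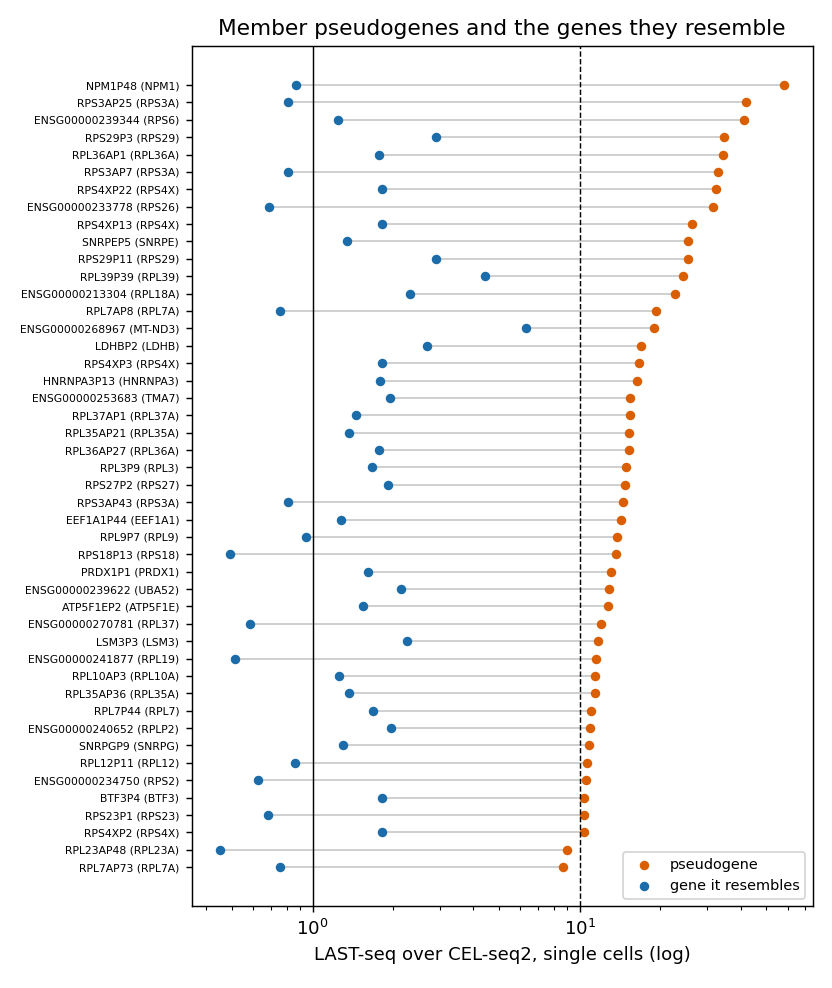
Ratio of LAST-seq to CEL-seq2 in single cells (horizontal, log) for 46 member pseudogenes (orange, CEL-seq2 taken at no less than 3 UMIs over 20 cells) and for the gene each resembles (blue, name in brackets); the dashed line is at 10. Every blue point lies left of the dashed line, at 0.451 to 6.27.

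Member pseudogenes were somewhat less like their sources than the other copies. Median identity to the source was 91.9% in members (77.4% to 99.7%) and 95.3% in the others, and 17.0% of members against 54.0% of the others reached 95%. Of their 50-base words a median of 96.1% occurred in no other gene, against 80.1%. RPL9P7, the highest pseudogene, was an exception. It was 99.7% identical to RPL9, and 9.42% of its words were found in no other gene, so its reads cannot be cleanly separated from those of RPL9. It had 15 to 58 and 29 to 66 UMIs per well in the 2 LAST-seq libraries with totals of 17 and 46 in CEL-seq2, while RPL9 was at 174 UMIs per cell in LAST-seq (mean of both libraries) against 185 in CEL-seq2. In all, 5 members had under 50% of their words found in no other gene.

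Among other pseudogenes RPS3AP25, with 78.1% of its words found in no other gene, had 6 to 30 and 10 to 35 UMIs per well in the 2 LAST-seq libraries, 8 to 31 in RNA and 4 to 21 in lysate. Its CEL-seq2 totals were 5 and 4 UMIs in single cells and 3 in lysate, a lysate ratio of 48 (95% counting interval 16.1 to 235). Its source RPS3A was not higher, with 185 UMIs per LAST-seq cell against 228 for CEL-seq2. NPM1P48, a copy of the nucleolar protein gene NPM1, had 5 to 13 and 2 to 12 UMIs per well against totals of 1 and 2 in CEL-seq2, with a lysate ratio of 36.3 (12.1 to 179). RPS29P3 had 0 to 8 and 4 to 10 UMIs per well against totals of 0 and 1, with a lysate ratio of 39.5 (10.6 to 332), and RPS29P11 reached 7.67 (2.32 to 39.9) in lysate. Copies of 1 source differed widely among themselves. Of the RPS29 copies, RPS29P3 and RPS29P11 had ratios of 104 and 38.0 on 1 and 2 CEL-seq2 UMIs, RPS29P16 6.11, ENSG00000219928 1.91 and RPS29P5 0.714. ENSG00000268967, a copy of the mitochondrial gene MT-ND3 with 77.4% identity, had totals of 19 and 38 UMIs in LAST-seq and none in CEL-seq2 cells or lysate.

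Small RNAs gave 5 members. MT-TF had 18 to 43 UMIs per well (median 32.5) in the first LAST-seq library and 15 to 41 (median 26) in the second, with totals of 1 and 16 in CEL-seq2. In lysate it had totals of 353 and 14, a ratio of 25.2 (14.8 to 46.6), and in RNA 4 to 15 per well. MT-TA, for alanine, had totals of 116 and 102 in the LAST-seq libraries against 8 and 7 for CEL-seq2, with a lysate ratio of 3.21 (1.89 to 5.69). Mitochondrial transfer RNA genes were not high in LAST-seq as a class: 19 were expressed, 2 were members, 6 had a ratio over 2 and 2 were more than 2-fold lower, with a median of 1.37. MT-TE was at 2.80 and MT-TS1 at 0.766.

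Among genes of annotated type snRNA, some named as pseudogenes by their symbols, 290 had a UMI in any single-cell library. Of these, 3 were expressed by the rule's minimum and 1 was a member. U3, a snoRNA gene on chromosome 14, had totals of 48 and 11 UMIs in the LAST-seq libraries against 2 and 3 for CEL-seq2, with 22.6% of its words found in no other gene. The precursor gene MIR1244-3 had 39 and 13 against 1 and 3, and none of its words were found only there, so its reads cannot be told apart from those of its copies. Replication-dependent histone genes, whose messages mostly lack a poly-A tail, gave no member: 1 of the 45 with a UMI reached the rule's minimum, at a ratio of 0.0230. A further list held the lncRNA genes MALAT1, NEAT1, KCNQ1OT1 and MEG3 and the small nucleolar RNA host genes (SNHG). Of its 20 expressed genes, none was a member, 4 had a ratio over 2 and 3 were more than 2-fold lower.

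Among lncRNAs the 11 members had 1.2 to 54.1 UMIs per LAST-seq cell, with a median of 2.30. After EHBP1-AS1 the highest were MSANTD2-AS1, with 4 to 14 and 3 to 11 UMIs per well and 8.30 UMIs per cell against 0.70 in CEL-seq2, and ENSG00000273568 with 4.70 against 0.35. The TEC gene ENSG00000279366 had 1 to 6 and 4 to 12 UMIs per well in the 2 LAST-seq libraries and 3 to 12 in RNA, with no UMI in LAST-seq lysate, CEL-seq2 or the SMART-seq single-cell wells. ENSG00000256399, a processed pseudogene with no source gene assigned, had totals of 14 and 18 in LAST-seq cells and 7 in RNA, and none in LAST-seq lysate or CEL-seq2. In eHAP1 both had UMIs in the wild type and none in the knockout. ENSG00000279366 had a mean of 7.45 UMIs per well, in 145 of 148 wild-type wells, and ENSG00000256399 a mean of 73.0, in all 148, while the 153 knockout wells held 0 UMIs of either. Each genotype is 1 sample of the series, so genotype and sample cannot be told apart.

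The lysate libraries, which the rule did not use, measured the same assay difference on another input. Of the 82 members 63 had at least 1 UMI per well in LAST-seq lysate, and 38 of these were more than 10 times higher than in CEL-seq2 lysate (60.3%), where 2.49% of 7080 genes were. Scaled to library totals the number was 40 of 63, against 2.74% of genes. The minimum was set on LAST-seq lysate alone, so members low or absent there could not count against this share. With any UMI in LAST-seq lysate as the only minimum, 45 of 74 members passed (60.8%), against 12.1% of 14823 genes. Of the 38, 11 had no CEL-seq2 UMI and could not give a ratio. Among the 52 with one, 27 passed 10 (51.9% against 1.57% of 7014 genes), with a median ratio of 10.6 against 1.09. At more than 5 times, 51 of the 63 passed, against 5.54% of genes, and 52 when scaled to library totals, against 6.13%. At more than 2 times, 62 passed both per well and scaled to library totals (20.6% and 23.4% of genes), the exception being EOGT with a ratio of 1.11 (0.406 to 3.09). All 43 pseudogenes tested were more than 2 times higher and 26 more than 10 times. The same shares over all expressed processed pseudogenes were not computed, so members cannot be set against their class here. The highest ratios were those of ABCG1 at 73.3 (28.3 to 271), RPS4XP13 at 67.5 (18.3 to 563) and RPS4XP22 at 62.5 (16.9 to 522). At the low end TSACC, MIR1244-3 and LRRC8D-DT had no LAST-seq lysate UMI and 5, 4 and 2 in CEL-seq2 lysate. With 1 library per assay the intervals cover counting error only, and no test between the assays was possible.

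**Figure D5:**
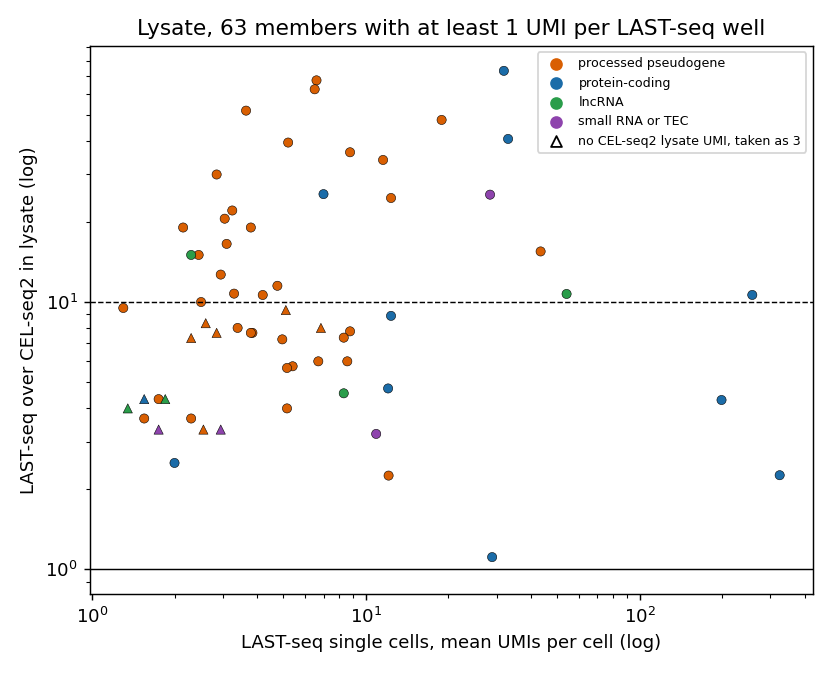
Ratio of LAST-seq to CEL-seq2 in lysate (vertical, log) against mean LAST-seq UMIs per single cell (horizontal, log) for the 63 members with at least 1 UMI per LAST-seq lysate well, by type; triangles had no CEL-seq2 lysate UMI and are drawn against 3 UMIs. All but EOGT lie above 2, and SSBP2, CCDC136 and EOGT, high in 1 single-cell library, lie under 10.

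Within LAST-seq the members kept their level in other inputs to an uneven degree. At least 1 UMI per well was found for 61 of the 82 in 15-pg RNA (against 90.3% of the 8683 genes) and for 63 in lysate (against 75.4%). Scaled to library totals, 22 of the 82 were more than 2 times higher in single cells than in 15-pg RNA (26.8%, against 13.1% of the 8683 genes) and 2 were more than 2 times lower (4.5% of genes). Against lysate 17 were more than 2 times higher in cells (20.7%, against 26.5% of genes) and 16 more than 2 times lower (19.5%, against 4.03%), of which 14 were pseudogenes. The share of all expressed processed pseudogenes that were lower in this way was not computed. RPS4XP13 and RPS4XP22 were 3.76 and 3.53 times higher in lysate than in cells. The rule chose genes high in the single cells, so a lower value elsewhere was favoured by the choice. More than 10 times higher in cells than in lysate were 12 members (14.6%, against 2.42%), with SSBP2, CCDC136, CARF, EOGT, TSACC and ENSG00000279366 the 6 with at least 5 UMIs per cell. For SSBP2, CCDC136 and EOGT the gap came from 1 single-cell library. Unscaled means in the other library were 1.7, 2 and 2.3 UMIs per well, against 1.8, 4.3 and 1 in lysate. Against RNA 6 members were more than 10 times higher in cells (7.32%, against 0.461%). SSBP2, CCDC136 and EOGT were among them, again through 1 library each.

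In SMART-seq, which has no UMIs and amplifies full-length cDNA by PCR, 56 of the 82 members had a read in at least 1 of the 6 single-cell wells (68.3%, against 88.1% of the 8683 genes), and 27 had reads in all 6 (32.9%, against 28.5%). By class, 39 of 47 pseudogenes (83.0%) were seen in at least 1 well, 9 of 18 protein-coding members and 5 of 11 lncRNAs. Each share was below that of all expressed genes of the class, which was 94.9% for processed pseudogenes, 87.7% for protein-coding genes and 80.2% for lncRNAs. Reads in all 6 wells were found for 53.2% of member pseudogenes, 5.56% of protein-coding members and 0% of lncRNA members. Among all expressed genes of the class these shares were 77.0%, 24.8% and 17.8%, so within each class members were seen in all 6 wells less often. RPL9P7 had a mean of 138 reads per well and RPS4XP22 79.8, while RPS29P3, RPL36AP27 and HNRNPA3P13 had none. Of the 11 members with few reads per UMI 6 had a read in a SMART-seq well and 2 averaged at least 1, namely EOGT (26.2 reads per well, all in 1 well) and SSBP2 (19.2, in 2 wells). In the 2 SMART-seq lysate tables the means were 13.6 and 6.3 reads per well for EOGT and 15.7 and 18.4 for SSBP2. CCDC136 had no read in the single-cell wells and means of 10.6 and 5 in the lysate tables.

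In eHAP1 cells measured by LAST-seq, 78 of the 82 members reached 0.1 UMI per well in the wild type (95.1%, against 98.1% of the 8683 genes) and 77 in the SCC4 knockout (93.9%, against 98.2%). At 1 UMI per well, 65 members passed in the wild type (79.3%, against 87.1% of genes), 63 in the knockout (76.8%, against 87.4%) and 60 in both. SSBP2 and EOGT, so high in 1 HEK293T library, had means of 2.47 and 1.14 in the wild type and 2.42 and 1.48 in the knockout. CCDC136 had 19.8 in the wild type and 1.2 in the knockout. EHBP1-AS1 (16.0 and 17.2), GREM1 (15.2 and 20.3), ABCG1 (10.5 and 21.5) and SRSF6 (291 and 260) were present in both. MT-TF had 55.9 and 126. No CEL-seq2 library of eHAP1 was analysed here.

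The median member had UMIs in 19 of 20 LAST-seq cells and the median of all 8683 genes was 20. Of the 82, 35 had a UMI in all 20 LAST-seq cells and 75 in at least 15. The first share was below that of the 8683 genes, whose median was 20. The exact shares of the 8683 genes were not computed. The lowest member was at 11 cells, and the lowest of all 8683 genes at 10. In CEL-seq2, where the rule asked for low counts, the median member had UMIs in 3.5 of 20 cells, and SRSF6 alone was seen in all 20. The median CV over the 10 cells of a library was 0.596 and 0.559 in the 2 LAST-seq libraries, against 0.53 and 0.479 for the 8601 other genes.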

How the data were processed

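The authors demultiplexed the libraries (bcl2fastq 2.20, per the submitters' processing notes), aligned reads to GRCh38 with GENCODE genes and ERCC sequences in zUMIs, subsampled reads, and collapsed UMIs of identical sequence. The deposited values are raw counts per gene and well, of UMIs or of reads, with no normalization. UMIs per well ran from 62816 to 195438 in the HEK293T libraries of LAST-seq and CEL-seq2, and SMART-seq wells labelled as single cells held 812582 to 818780 reads. Gene reads were 6877822 and 6767840 in the 2 LAST-seq single-cell libraries and 4213714 in the first CEL-seq2 library. ERCC rows were left out.

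Means per library were averaged over the 2 libraries of an assay. Ratios in lysate carry exact 95% intervals on pooled counts, for counting error only. No test across genes was run, since the members were chosen on the main contrast and the other inputs had 1 library per assay. A gene without CEL-seq2 UMIs was set against a floor of 3 UMIs over 20 cells. Gene types, longest transcripts, 50-base words and sequences came from GENCODE 44 on GRCh38, source genes from symbols or blastn 2.17.0, and folding energies from ViennaRNA 2.7.2 (Python 3.11.15, numpy 2.4.6, scipy 1.17.1, pandas 2.3.3). Scripts were tested on simulated data.

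Named were the 10 members with the highest ratio and the 10 with the most UMIs, the 3 highest of each type, the 3 nearest the threshold on either side, the 3 highest and lowest by lysate ratio and those with the 3 longest A runs. Other genes named were chosen after their values were seen. Members and lists were chosen with earlier results of these data known. The values of 1 member are not reported here.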

Additional observations from a re-analysis of the deposited data

How the results depend on the processing

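Of 35 values recomputed under alternatives, 20 stayed within their limits, 15 moved and 0 reversed. The number of members went from 82 to 184 at a ratio above 5, 34 above 20, and 375 when reads replaced UMIs (first CEL-seq2 library only, with 4213714 gene reads against 6877822 and 6767840 in the LAST-seq libraries). Leaving out 1 library at a time gave 85 to 142 members: 142 without the first LAST-seq library, 129 without the second, 85 and 138 without the first and second CEL-seq2 libraries. These lists held 73, 71, 61 and 73 of the 82 members. Leaving out genes under 1.4 reads per UMI, chosen after seeing the data, left 71 members, of which 62.0% were processed pseudogenes. The share with A-rich sequence was 8.64% when a run of at least 10 A was asked for. Without scaling to library totals, 40.2% of members were over 2 times higher in cells than in RNA (26.3% of genes) and 39.0% than in lysate (64.7% of genes). With 1 LAST-seq library at a time, and with scaling, the first of these ran from 22% to 25.6% (12.9% and 14.9% of genes) and the second was 19.5% (25.4% and 28.4%). SMART-seq detection was 51.2% at 2 reads in a well (85.5% of genes) and 32.9% in all 6 wells (28.5%), and eHAP1 wild-type detection 79.3% at 1 UMI per well (87.1%). Detection in all 6 SMART-seq wells was lower in members for processed pseudogenes, protein-coding genes and lncRNAs taken separately. Median reads per UMI was 2.67 in the second LAST-seq library, and the median CV of 0.633 over 20 cells was 0.596 and 0.559 within the libraries. The causes were not tested. With 26 members under 3 CEL-seq2 UMIs, depth limits how well their ratios are known. No paired analysis was possible because the members' contrast comes from no test and the other inputs had 1 library per assay.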
